A study of Mus musculus with 20 samples.

Results

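KSL cells (cKit+ Sca1+ Lin-, the bone marrow fraction that holds the haematopoietic stem cells and multipotent progenitors) of Fancd2-/- and wild-type mice on a placebo diet were compared by RNA sequencing. The groups were chosen by genotype, diet and cell population: 6 of the 20 libraries of the series, 3 of Fancd2-/- and 3 of wild-type mice. All mice were male, of strain 129S4 and 4 months old, and had eaten the placebo chow for 3 months from weaning at 3 to 4 weeks. Each library came from cells of 5 mice, pooled after 2 rounds of sorting, and no group carried another engineered allele in the labels. The labels do not say which part of Fancd2 is deleted. The other 6 KSL libraries, 3 of each genotype on chow with 300 mg/kg of the androgen oxymetholone, entered the fit to estimate the spread and served for comparison, and unsorted marrow of both genotypes on placebo, 1 library each, gave a ratio with no replicate check. P-values measure the spread between pools, and a pool shows no spread between its mice.

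FANCD2 works in the Fanconi pathway, which removes crosslinks between DNA strands and protects stalled replication forks. The Fanconi core complex attaches ubiquitin to FANCD2 and its partner FANCI, which then sit at the damaged DNA and bring in nucleases and recombination proteins. People who inherit defects in the pathway have Fanconi anemia, in which the marrow fails because stem and progenitor cells are lost. Most haematopoietic stem cells rest outside the cell cycle, while the multipotent progenitors of the same KSL fraction divide often.

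In megareads (Mreads), the placebo libraries held 17.4, 31.9 and 32.1 Mreads in Fancd2-/- cells and 35.6, 121 and 10.8 Mreads in wild-type cells. The transcripts of the sort markers were present in all 6 libraries: Kit was at 522, 497 and 307 CPM, normalised read counts scaled for library size, in Fancd2-/- libraries 1 to 3 and at 593, 628 and 797 CPM in wild-type libraries 1 to 3, and Ly6a, which encodes Sca1, was between 165 and 310 CPM. Fancd2-/- library 3 stood apart from the rest. Its first principal component was 66.9, against -23.5 to 4.48 in the other 11 KSL libraries. Relative to the mean of the other 11, its log2 levels dropped by 0.21 with each doubling of transcript length. The slopes of the other 11, each taken in the same way, lay between -0.05 and 0.11. It was also high in some matrix genes: Spp1 was at 561 CPM against 5.81 to 34.2 in the other 5 placebo libraries, and Fn1 at 41.2 against 1.70 to 5.28. Other members of the fibroblast and osteoblast list were lowest in it, such as Postn (2.40 CPM against 3.30 to 7.02), Runx2 (80.5 against 124 to 175) and Pdgfrb (37.4 against 38.3 to 74.9). That list summed to 1228 CPM, of which Spp1 made up 561, against 430.2 to 516. Thy1, a surface glycoprotein in that list that stem cells also carry, was called higher with all libraries (53.4, 55.1 and 84.7 CPM against 36.1, 39.5 and 30.2; log2 0.86) and not without Fancd2-/- library 3 (0.62, edgeR adjusted p = 0.08). Fancd2-/- library 2 was high in many markers of red cells and neutrophils, with the globin gene Hba-a1 at 113 CPM against 1.84 to 25.0 and the granule gene Ngp at 58.1 against 5.96 to 14.5. Other members were not highest in it: Hemgn was at 86.78 CPM against 50.04 to 98.93, and Tspan33 at 12.99 against 9.685 to 20.28. Lyz2 was at 316.6 CPM against 240 to 328, and Padi4 was lowest in it, at 135.1 against 135.6 to 152.4. The erythroid list summed to 471 CPM in Fancd2-/- library 2 against 68.6 to 186 in the other 5, and the neutrophil list to 705 against 440 to 525. Hemgn was the largest erythroid member in the other 5, and Lyz2 and Padi4 were the largest neutrophil members in all 6. Among lymphocyte markers, Cd3e was at 0.158 CPM in Fancd2-/- library 2 and at 0 in the other 5, and Pax5 was at no more than 0.126 CPM. The T and NK cell list summed to 264.8, 317.8 and 361.5 CPM in Fancd2-/- libraries 1 to 3 and to 256.3, 267.7 and 213.1 CPM in wild-type libraries 1 to 3, most of it Nkg7 (155.6, 203 and 254 CPM against 122.5, 146 and 105) and Lat (79.2 to 98.98 CPM). The B cell list summed to between 79.5 and 113 CPM, most of it Cd79b (65.96 to 89.9 CPM). The part of these other cells and of RNA quality in the results below was not tested, beyond the fits with single libraries left out. In bulk RNA, more cells of a type and more RNA per cell cannot be told apart.

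**Figure D1:**
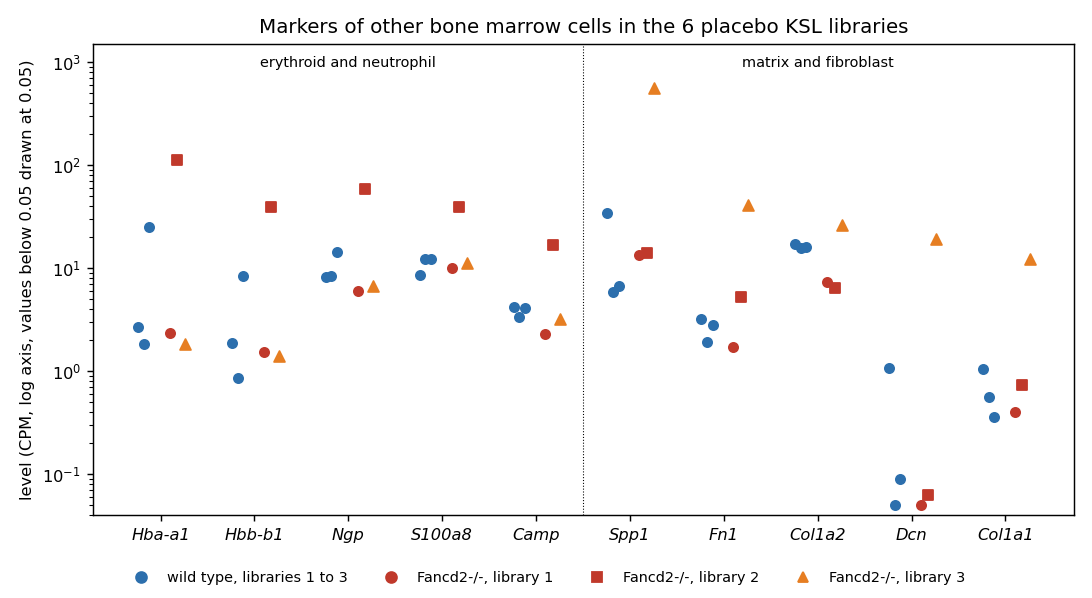
Level of 10 marker genes of other bone marrow cells (vertical axis, CPM on a log scale, values below 0.05 drawn at 0.05) in the 6 placebo KSL libraries; each point is 1 library. Fancd2-/- library 2 is highest for the erythroid and neutrophil genes at left (Hba-a1 at 113 CPM) and Fancd2-/- library 3 for the matrix genes at right (Spp1 at 561 CPM).

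Fancd2 transcript itself (NM_001033244) was at 8.23, 8.06 and 7.06 CPM in Fancd2-/- libraries 1 to 3 and at 16.8, 18.4 and 22.5 CPM in wild-type libraries 1 to 3. All Fancd2-/- libraries lay below all wild-type ones, with a log2 difference of -1.30 ± 0.18 (SE; edgeR adjusted p = 0.00514) and of -1.22 without Fancd2-/- library 3 (edgeR adjusted p = 0.0163). With the 6 placebo libraries alone in the fit the difference was -1.28 (edgeR adjusted p = 0.0507). Which exons gave the remaining reads was not analysed here. Of the 30 tested genes of the Fanconi pathway list, out of 33 on it, Fancd2 was the only one that passed; 20 were above 0 and 10 below, with a median of 0.13 against -0.01 over all 13259 genes tested. Without Fancd2-/- library 3, 17 were above 0 and 13 below, with a median of 0.05.

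Across all genes, 170 of 13259 (1.28%) passed the test of genotype, with 67 (0.505%) above wild type and 103 (0.777%) below it, at an edgeR adjusted p under 0.05. Limma on the authors' scaled matrix gave 47 higher and 122 lower, and DESeq2 gave 468 and 341, so the balance of directions depended on scaling and tool. The 3 Fancd2-/- libraries did not overlap the 3 wild-type ones for any of the 170, which was also so for 3349 (25.3%) of all genes tested. Without Fancd2-/- library 3 the fit called 76 of 13369 genes (0.568%), and 62 genes (0.468%) were called with and without it, 15 higher and 47 lower. These 62 are called stable to that library below. All 170 had the same sign in both fits. The median log2 difference of the 67 higher genes went from 0.78 to 0.73 without the library, and that of the 103 lower genes from -0.90 to -0.86. Fancd2-/- library 3 was the farthest of its group from wild type in 43 of the 67 higher and 58 of the 103 lower genes. The stable genes had medians of 0.96 and -1.18, and those that lost the call 0.72 and -0.84. With the trend over transcript length removed from each library, 14 of the 15 stable higher and 44 of the 47 stable lower genes were called, as were 34 of the 52 and 44 of the 56 that lost the call without the library.

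**Figure D2:**
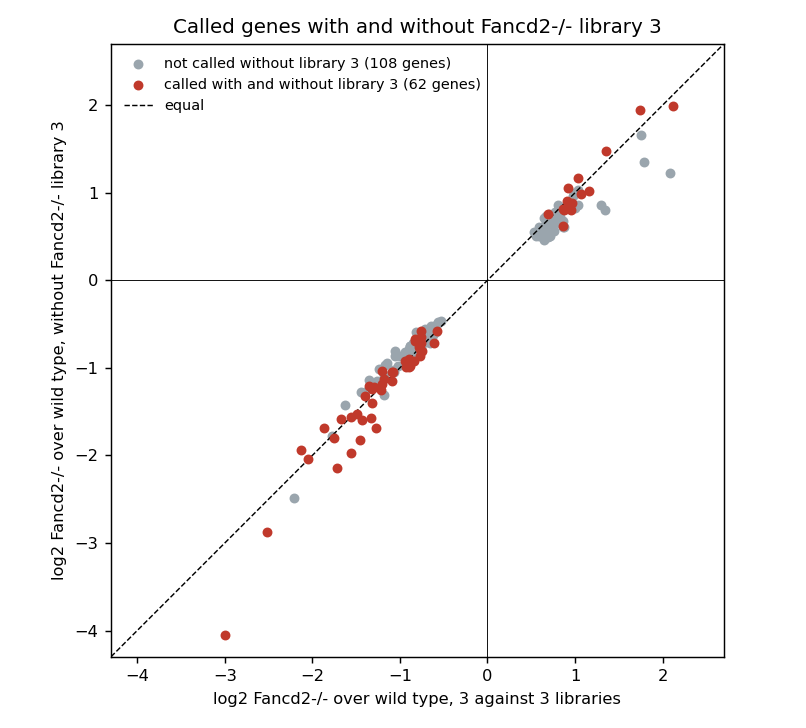
Log2 difference between Fancd2-/- and wild-type placebo KSL cells for the 170 called genes, with all 6 libraries (horizontal axis) and without Fancd2-/- library 3 (vertical axis); each point is 1 gene. All 170 genes keep their sign, and the 62 called in both fits (red) lie on both sides of the dashed line of equal values.

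Cd48 and Socs2 had the smallest p-values among the stable higher genes. Cd48 encodes a surface protein of the SLAM family that stem cells lack and most multipotent progenitors carry. It was at 270, 292 and 340 CPM in Fancd2-/- libraries 1 to 3 and at 167, 162 and 132 CPM in wild-type libraries. The groups lay well apart, and the log2 difference was 0.97 ± 0.13 with all libraries (edgeR adjusted p = 0.00514) and 0.88 without Fancd2-/- library 3 (edgeR adjusted p = 0.00933). The Cd48 difference was between 0.88 and 1.05 with any single library left out, and passed each time. Of the 10 tested multipotent progenitor markers, out of 11 listed, Cd48 was the only call; 7 were above 0 and 3 below, with a median of 0.27 with all libraries and 0.34 without Fancd2-/- library 3. Flt3, the receptor that marks lymphoid-primed progenitors, was at 501, 576 and 367 CPM against 583, 618 and 592 (-0.31 ± 0.14, edgeR adjusted p = 0.247).

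Socs2 encodes an inhibitor of signalling through cytokine and growth hormone receptors, and is itself a target of STAT5. Its levels were 143, 126 and 105 CPM in Fancd2-/- libraries 1 to 3 and 48.6, 51.8 and 45.5 CPM in wild-type libraries, a log2 difference of 1.36 ± 0.19 (edgeR adjusted p = 0.00514) that was larger without Fancd2-/- library 3 (1.47, edgeR adjusted p = 0.00586). The lowest Fancd2-/- library was above the highest wild-type library by a wide margin. Socs2 was the only gene called of 28 in the JAK-STAT and SOCS list, in which 10 were above 0 and 18 below (median -0.16). Another gene that STAT5 induces, Cish, was at 192, 292 and 184 CPM against 206, 174 and 199 (0.21 ± 0.19, edgeR adjusted p = 0.579), so its groups overlapped. Stat5a was at 154, 179 and 153 CPM against 185, 195 and 194 (-0.24 ± 0.12, edgeR adjusted p = 0.275).

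Among the other stable higher genes, Clec4e, a pattern-recognition receptor of myeloid cells, was at 124, 103 and 84.6 CPM against 53.4, 44.5 and 54.6 (log2 1.03 ± 0.18, edgeR adjusted p = 0.0158; 1.17 without Fancd2-/- library 3). It was the only call of 36 tested genes of the TNF and NF-kB response list, whose median was -0.17 with 26 genes below 0. Tpm4, a tropomyosin of the actin cytoskeleton, was at 37.0, 45.1 and 53.4 CPM against 24.2, 24.9 and 21.4 (0.94 ± 0.16, edgeR adjusted p = 0.013). Gimap7, a GTPase gene of the lymphocyte GIMAP cluster, was at 31.8, 32.4 and 24 CPM against 18.6, 14.6 and 13.2 (0.92 ± 0.19, edgeR adjusted p = 0.0368). Chga, which encodes the secretory granule protein chromogranin A, was low in all libraries, with 4.77, 9.32 and 4.2 CPM against 2.18, 2.21 and 0.723 (1.74 ± 0.36, edgeR adjusted p = 0.0383). The largest difference of the 15 was in 6530418L21Rik, an uncharacterised gene, at 2.21, 2.66 and 3.15 CPM against 0.42, 0.76 and 0.633 (2.12 ± 0.37, edgeR adjusted p = 0.0158). D2Ertd750e was at 118, 149 and 151 CPM against 66.8, 80.9 and 82.4 (0.86 ± 0.13, edgeR adjusted p = 0.011). As for all 170 called genes, the groups did not overlap for these 6. Their calls rested on other single libraries: Tpm4, 6530418L21Rik, Clec4e and Chga lost the call without Fancd2-/- library 2 and without each wild-type library, with edgeR adjusted p values up to 0.0689, 0.0933, 0.0901 and 0.11. Gimap7 was called without Fancd2-/- library 3 and lost the call without each of the other 5 (up to 0.139, without wild-type library 2) and with the length trend removed (edgeR adjusted p = 0.0619), and D2Ertd750e lost it without wild-type library 1 (0.0689).

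**Figure D3:**
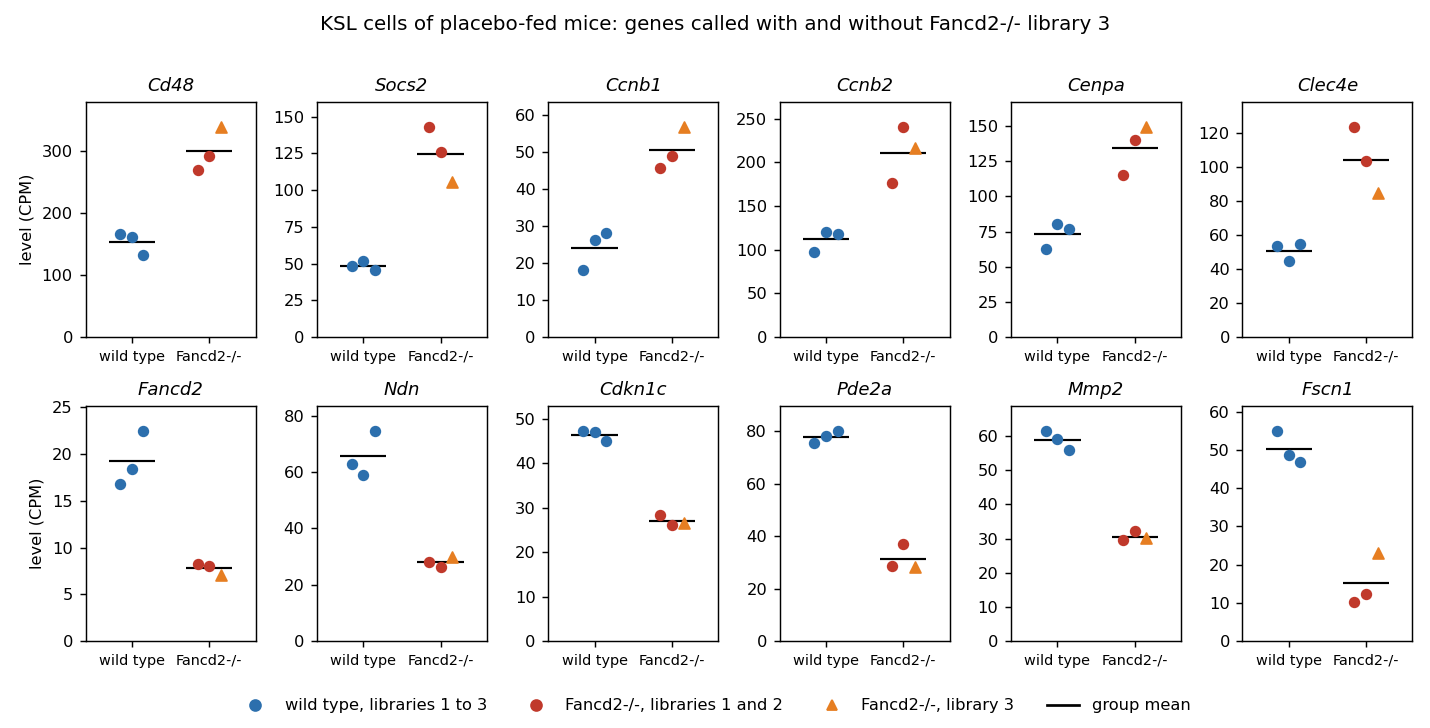
Levels of 12 genes (vertical axes from 0, CPM) in the 6 placebo KSL libraries; points are libraries, the triangle is Fancd2-/- library 3 and the line is the mean of 3 libraries. In each panel the groups do not overlap, with Socs2 between 45.5 and 51.8 CPM in wild-type and between 105 and 143 CPM in Fancd2-/- cells, and Ndn between 59.1 and 74.6 against 26.2 to 29.8 CPM.

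Genes of mitosis gave the most higher calls of any list. Of the 35 genes of that list, all tested, 16 (45.7%) were called higher against 0.505% of all genes, 35 lay above 0, and the median was 0.71; without Fancd2-/- library 3, 6 were called and the median was 0.62. These genes were listed with earlier results of these data known, so the counts are a description and no independent support. By library, the median difference of the list from the wild-type mean was 0.50, 0.79 and 0.84 in Fancd2-/- libraries 1 to 3 and -0.20, 0.14 and 0.08 in wild-type libraries 1 to 3. Ccnb1, the cyclin B1 gene, was at 45.7, 49.0 and 56.9 CPM against 18, 26.2 and 28.1, and Ccnb2 at 176, 241 and 216 CPM against 97.8, 121 and 118. Cdk1, their kinase partner, was at 216, 230 and 352 CPM against 134, 159 and 144, with a log2 difference of 0.62 without library 3 and 0.87 with it. Cdc25c, the phosphatase that activates that kinase, was at 25.7, 35.1 and 41.4 CPM against 15.2, 20.2 and 17.2 (0.80 without library 3, 0.96 with it). Ube2c, which works with the anaphase-promoting complex to destroy cyclins, was at 99.1, 154 and 167 CPM against 48.8, 72.8 and 66.4 (1.02 and 1.16). Cenpa, the histone that marks centromeres, was at 115, 140 and 149 CPM against 62.6, 80.3 and 77.0 (0.81 and 0.88). Ckap2, a spindle protein gene outside the list, was at 79.6, 90.2 and 75.4 CPM against 43.9, 53.5 and 54.5 (0.76 and 0.69), higher without library 3 than with it. In each of these 7 genes the groups were apart, and wild-type library 1 had the lowest level of all 6 libraries. Without wild-type library 1 the edgeR adjusted p was 0.0497 for Ccnb1, Ccnb2 and Cenpa, 0.0732 for Ube2c, 0.0986 for Cdc25c, 0.111 for Cdk1 and 0.168 for Ckap2. Ube2c and Cdc25c also lost the call without Fancd2-/- library 2 or wild-type library 3, Cdk1 without wild-type library 2 or 3, and Ckap2 without any of these 3.

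The promoters of the called higher genes were read for 3 short motifs on both strands, and 4 stretches of 250 bases before the RefSeq start are shown because these genes moved together and their promoters differ in motif content. Capitals mark CCAAT, the box of the factor NF-Y (or its reverse ATTGG), and TTTGAA, the core of the cell cycle homology region (or its reverse TTCAAA). The stretches lie in mm9 at chr13:101556442-101556691, minus strand, for Ccnb1, chr9:70269362-70269611, minus strand, for Ccnb2, chr5:30969009-30969258, plus strand, for Cenpa and chr2:164595179-164595428, plus strand, for Ube2c, each ending at the base before the RefSeq start.
Ccnb1: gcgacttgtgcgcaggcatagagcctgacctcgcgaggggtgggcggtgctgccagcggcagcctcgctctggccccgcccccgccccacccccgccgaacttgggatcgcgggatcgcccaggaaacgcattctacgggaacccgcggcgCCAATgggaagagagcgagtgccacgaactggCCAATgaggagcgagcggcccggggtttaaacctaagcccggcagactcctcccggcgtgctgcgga
Ccnb2: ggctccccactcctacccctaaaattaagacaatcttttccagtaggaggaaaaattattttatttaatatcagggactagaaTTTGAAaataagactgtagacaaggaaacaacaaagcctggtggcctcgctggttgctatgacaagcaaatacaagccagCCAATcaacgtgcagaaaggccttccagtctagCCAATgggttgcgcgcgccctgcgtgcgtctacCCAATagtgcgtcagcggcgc
Cenpa: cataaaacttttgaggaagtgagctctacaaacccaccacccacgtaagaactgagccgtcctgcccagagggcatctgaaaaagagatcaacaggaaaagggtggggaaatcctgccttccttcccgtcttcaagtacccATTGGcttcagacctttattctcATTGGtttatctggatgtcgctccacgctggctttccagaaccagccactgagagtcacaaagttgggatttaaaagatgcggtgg
Ube2c: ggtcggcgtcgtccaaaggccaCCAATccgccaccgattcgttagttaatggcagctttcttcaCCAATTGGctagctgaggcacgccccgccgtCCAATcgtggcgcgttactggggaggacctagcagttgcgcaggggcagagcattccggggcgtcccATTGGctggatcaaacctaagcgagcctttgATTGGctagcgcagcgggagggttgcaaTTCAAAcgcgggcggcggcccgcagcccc
Ccnb1 and Cenpa held 2 copies of CCAAT and no TTTGAA in these windows, Ccnb2 held 3 copies of CCAAT and 1 TTTGAA, and Ube2c held 6, a pair of them overlapping, and 1. In the 300-base windows that RefSeq gives (250 before and 50 after the start), TTTGAA was present in 25 of the 56 called higher genes with a promoter (44.6%), in 6 of 76 called lower genes (7.89%) and in 12% of the 10587 tested genes with one. CCAAT was present in 31 of 56 (55.4%), 29 of 76 (38.2%) and 38.5%. Within the mitosis list 9 of 12 called genes held TTTGAA and 10 of 12 held CCAAT, and among the other called higher genes 16 of 44 (36.4%) held TTTGAA and 21 of 44 (47.7%) CCAAT. The STAT palindrome TTCNNNGAA was in 3 of 56 called higher genes (5.36%), 4 of 76 lower genes (5.26%) and 6.85% of all. Socs2 had no entry in the promoter table. A match is a run of letters and not a measured binding site.

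The mitotic genes that lost the call without Fancd2-/- library 3 lay above 0 in both fits. Pttg1, the securin gene, was at 40.3, 58.0 and 68.8 CPM against 26.5, 33.6 and 23.1 (log2 1 with the library, 0.83 and edgeR adjusted p = 0.0593 without it). Tpx2, a spindle assembly factor, was at 160, 221 and 233 CPM against 108, 129 and 132 (0.73 and 0.64, edgeR adjusted p = 0.0591 without it). Nek2, a centrosome kinase gene, was at 27.9, 34.8 and 44.9 CPM against 16.7, 20.5 and 22.3, and Cenpw, a centromere gene, at 28.8, 23.8 and 32.6 CPM against 12.8, 17.6 and 14.1. The kinetochore genes Nuf2 and Spc25 had their lowest Fancd2-/- level in library 3: Nuf2 was at 70.2, 70.5 and 69.6 CPM against 33.4, 40.5 and 45.7, and Spc25 at 88.6, 85.7 and 78.2 CPM against 40.7, 49.5 and 54.7. Birc5, the survivin gene, was at 112, 131 and 195 CPM against 71.3, 93.7 and 73.8, and its log2 difference went from 0.87 to 0.61 without the library. The other calls of the list that were lost were Ccna2 (0.75 with the library and 0.73 without), Bub1b (0.82 and 0.65), Kif4 (0.59 and 0.61), Kif20a (0.65 and 0.55), Top2a (0.56 and 0.50) and Prc1 (0.68 and 0.70). Mki67, the gene of the proliferation antigen Ki-67, did not pass: it was at 197, 247 and 181 CPM against 183, 218 and 162 (0.15 ± 0.14, edgeR adjusted p = 0.574), and its groups overlapped.

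DNA replication genes lay above 0 in 35 of 35, with a median of 0.42 and 1 call (2.86%), and with a median of 0.26 and no call without Fancd2-/- library 3. The called gene, Rrm2, is a subunit of the ribonucleotide reductase that makes deoxynucleotides. It was at 96.6, 106 and 110 CPM against 55.1, 71.5 and 71.1 (log2 0.66 ± 0.13, edgeR adjusted p = 0.0257; 0.63, edgeR adjusted p = 0.0576 without the library). The sliding clamp gene Pcna was at 161, 143 and 185 CPM against 112, 120 and 113 (0.51 ± 0.12, edgeR adjusted p = 0.0574), with the groups apart, as for 25.3% of all genes tested. The list's median by library was 0.27, 0.29 and 0.58 in Fancd2-/- and -0.03, 0.07 and -0.03 in wild-type cells. Genes of nucleotide synthesis had a median of 0.31 (28 of 30 above 0, 0 called by edgeR; 0.28 without the library). Genes of homologous recombination and end joining were above 0 in 26 of 35 (median 0.23, 0 called by edgeR), and without Fancd2-/- library 3 in 29 of 35 (median 0.14). Those of base and nucleotide excision repair were above 0 in 25 of 35 (median 0.08, 0 called by edgeR), and without that library in 17 of 35 (median -0.0044).

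The list of p53 targets holds mostly genes that p53 induces after DNA damage, and also Trp53 itself. It had a median of 0.21, with 25 of 36 above 0. Without Fancd2-/- library 3 the median was 0.14, with 22 of 36 above 0 and 0 called by edgeR. By library the median was 0.13, 0.15 and 0.35 in Fancd2-/- and 0.01, 0.00 and 0.00 in wild-type cells. With all libraries 1 gene was called (2.78%). That gene, Eda2r, a death receptor of the TNF family, was at 2.78, 1.64 and 2.63 CPM against 0.70, 0.719 and 0.633 (log2 1.75 ± 0.39, edgeR adjusted p = 0.0449; 1.66, edgeR adjusted p = 0.103 without Fancd2-/- library 3). The groups were apart at a low level. The stress cytokine gene Gdf15 was at 1.93, 2.97 and 3.38 CPM against 1.04, 0.898 and 0.994 (1.52 ± 0.35, edgeR adjusted p = 0.0527). Cdkn1a, the p21 gene, was at 56.6, 110 and 145 CPM against 87.1, 47.0 and 72.8, with overlapping groups (0.59 ± 0.43, edgeR adjusted p = 0.467), and the transcript of p53 itself, Trp53, at 330, 417 and 417 CPM against 396, 402 and 339 (0.03 ± 0.13). Bok, a pro-apoptotic member of the BCL2 family, was called higher with all libraries (48.3, 46.4 and 75.6 CPM against 30.6, 35.9 and 26.7; 0.86 ± 0.18, edgeR adjusted p = 0.0378) and not without Fancd2-/- library 3 (0.61, edgeR adjusted p = 0.075). It was the only call of 34 tested genes in the list of BCL2 genes and caspases, whose median was 0.04.

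Among imprinted growth genes and cell cycle inhibitors, necdin and p57 fell. Ndn (necdin, imprinted and expressed from the paternal allele, a p53-binding growth suppressor) was at 28.2, 26.2 and 29.8 CPM in Fancd2-/- libraries 1 to 3 and at 62.8, 59.1 and 74.6 CPM in wild-type libraries. Fancd2-/- library 3 was the highest of its group, and the log2 difference was -1.22 ± 0.14 with it (edgeR adjusted p = 0.00265) and -1.26 without it (edgeR adjusted p = 0.00586). Cdkn1c (p57, a cyclin-dependent kinase inhibitor expressed from the maternal allele) was at 28.3, 26.2 and 26.6 CPM against 47.3, 47.0 and 45.0 (-0.78 ± 0.13, edgeR adjusted p = 0.0128; -0.76, edgeR adjusted p = 0.0319 without the library). The groups of Cdkn1c lay well apart, but without Fancd2-/- library 2 or any wild-type library the call was lost (edgeR adjusted p up to 0.0732, without wild-type library 1). Ndn and Cdkn1c were also the calls of 26 tested inhibitors and quiescence genes (18 below 0, median -0.16, -0.05 without Fancd2-/- library 3). Of 18 tested imprinted genes, out of 28 listed, these 2 were called (11.1%), 13 were below 0 and the median was -0.24 (-0.35 without the library). Igf2, the insulin-like growth factor of the same cluster as Cdkn1c, was at 0.795, 1.04 and 0.919 CPM against 2.74, 2.61 and 2.35 (-1.48 ± 0.38, edgeR adjusted p = 0.0737). Plag1, a zinc finger activator of Igf2 that was called outside the list, was at 1.59, 1.83 and 1.18 CPM against 4.87, 7.01 and 4.70 (-1.86 ± 0.27, edgeR adjusted p = 0.00602).

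Stem cell transcription factors were below 0 in 27 of 29, with a median of -0.30 and 3 calls (10.3% against 0.777% of all genes). Without Fancd2-/- library 3 the median was also -0.30, with Ndn the only call. Ndn is the gene already counted in the imprinted and inhibitor lists above, so these lists do not give separate results for it. Members were chosen with earlier results of these data known, so the share is a description and no independent support. Gfi1b, a repressor that keeps stem cells at rest and is needed in the megakaryocyte and erythroid line, was at 32.0, 31.9 and 25.0 CPM against 57.9, 48.0 and 64.5 (-0.94 ± 0.19, edgeR adjusted p = 0.0373; -0.82, edgeR adjusted p = 0.104 without the library). Prdm16, which maintains stem cells, was at 41.3, 38.8 and 30.6 CPM against 53.3, 65.8 and 64.4 (-0.73 ± 0.15, edgeR adjusted p = 0.0383; -0.60, edgeR adjusted p = 0.0983 without it). Setbp1, a nuclear protein gene outside the list, was stable at 4.48, 3.38 and 2.89 CPM against 9.60, 8.55 and 9.04 (-1.35 ± 0.21, edgeR adjusted p = 0.011). By library, the list's median was -0.22, -0.22 and -0.41 in Fancd2-/- and -0.05, -0.04 and 0.14 in wild-type cells. Of 26 tested surface markers of stem cells 18 were below 0 (median -0.30). Gpr56, an adhesion receptor of stem cells, was at 1038, 1268 and 964 CPM against 1695, 1740 and 1756 (-0.67 ± 0.18, edgeR adjusted p = 0.081). Against the direction of the list, Slamf1 (CD150) was at 25.1, 23.6 and 20.1 CPM against 16.5, 14.3 and 17.5 (0.52 ± 0.17, edgeR adjusted p = 0.135). Its groups were apart, as for 25.3% of all genes tested. Cd34 was not lower either, at 1259, 1335 and 1291 CPM against 1212, 1273 and 1287 (0.04 ± 0.10).

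**Figure D4:**
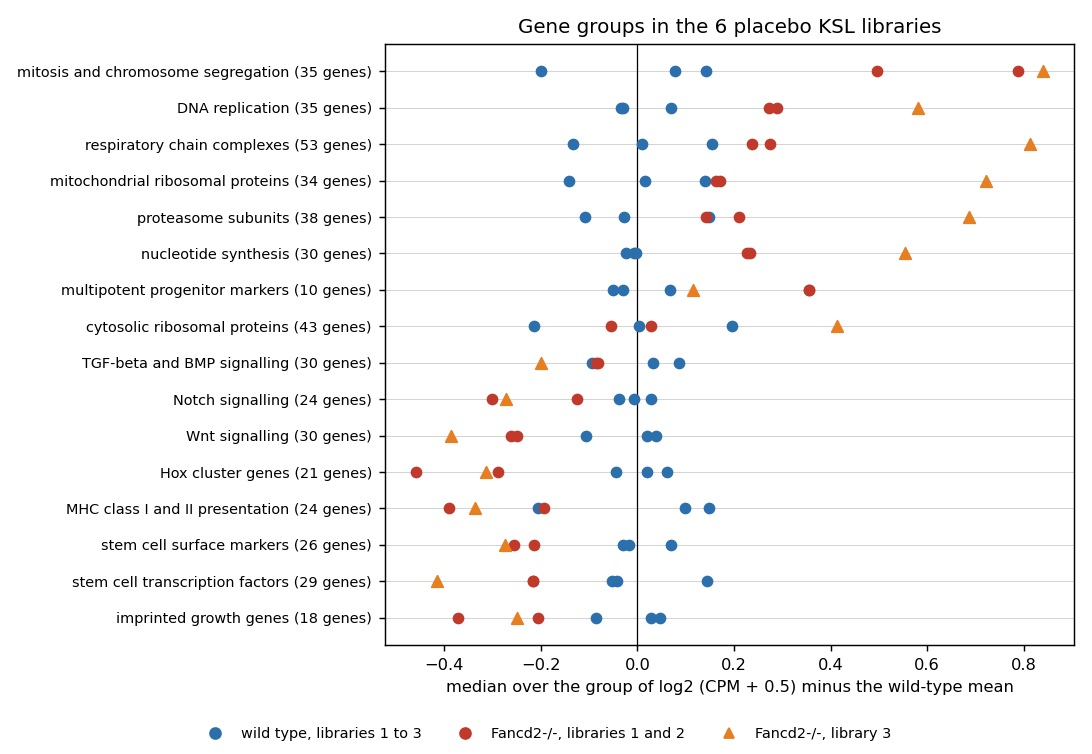
Median over the genes of 16 groups of log2 (CPM + 0.5) minus the wild-type mean (horizontal axis) in each of the 6 placebo KSL libraries; each point is 1 library. The 3 Fancd2-/- libraries lie together above wild type for mitosis and below it for stem cell transcription factors, while Fancd2-/- library 3 lies alone at right for respiratory chain (0.81 against 0.27 and 0.24) and ribosomal protein genes.

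Both calls in the list of cyclic nucleotide enzymes were lower and stable; phosphodiesterases break these messengers down. Pde2a, the phosphodiesterase that cGMP stimulates to break down cAMP, was at 28.4, 37.0 and 28.1 CPM against 75.5, 78.0 and 80.1 (log2 -1.32 ± 0.15, edgeR adjusted p = 0.00265; -1.24 without Fancd2-/- library 3). Pde1b, which calcium and calmodulin activate, was at 26.3, 21.6 and 27.4 CPM against 40.4, 40.3 and 45.9 (-0.75 ± 0.14, edgeR adjusted p = 0.0236; -0.81, edgeR adjusted p = 0.0319 without it). Pde1b lost the call without Fancd2-/- library 2 or any wild-type library (edgeR adjusted p up to 0.0983, without wild-type library 3). These were the 2 calls of 29 tested phosphodiesterases, adenylyl cyclases and protein kinase A subunits (6.90%, against 0.777% of all genes called lower). Of the 29, 22 were below 0, with a median of -0.16. Pde12, a mitochondrial 2',5'-phosphodiesterase that does not act on cyclic nucleotides, was at 45.8, 48.2 and 48.3 CPM against 33.5, 35.9 and 35.6 (0.44 ± 0.11, edgeR adjusted p = 0.0644).

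Genes of small GTPases, adhesion and the cytoskeleton gave further stable lower genes. Rtkn (rhotekin, an effector of RhoA) was at 15.2, 14.0 and 16.5 CPM against 32.2, 32.1 and 32.9 (log2 -1.09 ± 0.14, edgeR adjusted p = 0.00274), and Tenc1 (tensin 2, of focal adhesions) at 7.95, 8.41 and 9.92 CPM against 20.3, 20.7 and 24.7 (-1.31 ± 0.16, edgeR adjusted p = 0.00265). Both differed more without Fancd2-/- library 3 (-1.14 and -1.40). Arhgef12, an exchange factor for RhoA, was at 61.4, 56.1 and 49.5 CPM against 76.1, 79.3 and 92.6 and lost the call without that library (-0.57 ± 0.12, edgeR adjusted p = 0.0386; -0.48, edgeR adjusted p = 0.0923) and with the length trend removed (-0.33, edgeR adjusted p = 0.104). Fscn1 (fascin, which bundles actin) was nearest to wild type in Fancd2-/- library 3: it was at 10.2, 12.3 and 23 CPM against 55.0, 48.7 and 47.0, -1.72 ± 0.30 with the library (edgeR adjusted p = 0.0158) and -2.15 without it (edgeR adjusted p = 0.00604). The call of Fscn1 was lost without Fancd2-/- library 2 or any wild-type library (edgeR adjusted p up to 0.08, without wild-type library 1). The adhesion genes Cntn1 (contactin 1) and Ncam1 (CD56) were at 1.36, 1.01 and 0.788 CPM against 3.56, 4.44 and 5.78 (-2.13 ± 0.31, edgeR adjusted p = 0.00602) and at 1.65, 2.28 and 4.01 CPM against 5.8, 9.44 and 8.4 (-1.56 ± 0.35, edgeR adjusted p = 0.047). Ncam1 was called without Fancd2-/- library 3 and lost the call without each of the other 5 libraries (up to 0.194, without wild-type library 2) and with the length trend removed (edgeR adjusted p = 0.0808). Cntn1 and Ncam1 were the calls among 34 tested integrin, adhesion and homing genes, whose median was -0.10. Gria3, a glutamate receptor subunit, was at 11, 9.42 and 6.99 CPM against 20.5, 22.4 and 19.9 (-1.20 ± 0.17, edgeR adjusted p = 0.00602), the only call of 20 tested neuronal receptor and channel genes out of 33 listed (median -0.20).

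Matrix proteases and their inhibitors held the highest share of lower calls of any list, 5 of 28 tested (17.9% against 0.777% of all genes). Without Fancd2-/- library 3, 4 genes were called, 3 of these and Timp2. The list also holds Tinagl1 and Rhbdf1, which have no protease activity. Its members were chosen with earlier results of these data known, so the share is a description and no independent support. Mmp2 (gelatinase A) was at 29.5, 32.2 and 30.1 CPM against 61.5, 59.3 and 55.9 (log2 -0.95 ± 0.11, edgeR adjusted p = 0.00265; -0.92 without the library). Fancd2-/- library 3, which was high in some other matrix genes, had a level of Mmp2 between those of the other 2 Fancd2-/- libraries. Tinagl1, a matricellular protein related to cathepsin B without protease activity, was at 13, 12.1 and 11 CPM against 35.7, 31.7 and 27.1 (-1.40 ± 0.18, edgeR adjusted p = 0.00363), and Rhbdf1, an inactive rhomboid that carries the protease ADAM17 to the surface, at 8.68, 6.13 and 7.91 CPM against 20.6, 20.9 and 22.5 (-1.49 ± 0.21, edgeR adjusted p = 0.00514). Mmp11 (stromelysin 3) and Htra3 (a serine protease) were called with all libraries (-0.68 and -1.44) and not without Fancd2-/- library 3 (edgeR adjusted p = 0.098 and 0.0693). The list was split in direction: 13 of its genes were above 0 and 15 below, and its median was -0.08 (-0.29 without the library). Outside the list, Serpinf1, a secreted serpin known as PEDF, was at 102, 102 and 128 CPM against 189, 169 and 147 (-0.61 ± 0.14, edgeR adjusted p = 0.0474; -0.72 without the library), a stable gene named after its values were seen. It was called without Fancd2-/- library 3 and lost the call without each of the other 5 libraries.

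Without Fancd2-/- library 3, 14 genes were called that were not called with it, 2 higher and 12 lower, and these are named after their values were seen. Sfrp1, a secreted inhibitor of Wnt signalling, was at 2.16, 2.24 and 6.30 CPM against 9.71, 9.36 and 8.85 (log2 -2.07, edgeR adjusted p = 0.00235 without library 3; -1.37, edgeR adjusted p = 0.0605 with it). The collagen gene Col1a2 was at 7.27, 6.42 and 26.2 CPM against 17.1, 15.8 and 16.0, so that library 3 lay above all wild-type libraries and the other 2 below them (-1.25, edgeR adjusted p = 0.00762; -0.28, edgeR adjusted p = 0.715 with it). Timp2, an inhibitor of metalloproteases that also takes part in activating the MMP2 protein, was at 80.7, 77.3 and 169 CPM against 134, 105 and 117 (-0.58, edgeR adjusted p = 0.0475; -0.12 with it), and the matrix peroxidase gene Pxdn at 0.227, 0.537 and 5.81 CPM against 2.16, 2.47 and 1.72 (-2.39, edgeR adjusted p = 0.0414; 0.06 with it). Nkx2-3, a homeobox gene, was at 138, 141 and 197 CPM against 229, 204 and 198 (-0.59, edgeR adjusted p = 0.0338). The other lower genes were Eno2, Galntl4, Npdc1, Npcd, Nptxr, Selm and Zfp503. The higher ones were Emp1 (109, 134 and 90.8 CPM against 55.3, 66.2 and 74.8) and the mast cell tryptase gene Tpsb2 (1.36, 2.37 and 0 CPM against 0.056, 0.294 and 0.181). The mast cell and basophil list that holds Tpsb2 had a median of 0.82, with 10 of 12 tested genes above 0 and 0 called by edgeR. Without library 3 its median was 1.06, with 11 of 14 above 0. By library the list's median was 0.17, 0.97 and 0.14 in Fancd2-/- and -0.03, -0.01 and 0.07 in wild-type cells. The part of such cells in the Tpsb2 values was not tested. Library 3 was nearer to wild type than the others, or beyond it, for all 12 of the lower genes. Picking genes that gain a call without this library favours that position, so it is no separate observation. Npcd and Nptxr overlap on the chromosome, so their reads may not be separate.

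The other stable lower genes covered several roles. Rcor2, a corepressor that works with the histone demethylase LSD1, was at 23.6, 23.1 and 27.8 CPM against 49.5, 44.9 and 38.2 (log2 -0.83 ± 0.13, edgeR adjusted p = 0.0116), and with Cbx7, a Polycomb subunit that lost the call without Fancd2-/- library 3 (-0.88, then -0.75 and edgeR adjusted p = 0.131), made up the calls of 40 genes of the Polycomb and DNA methylation list (29 below 0, median -0.21, -0.08 without the library). Apbb1 (an adaptor of the amyloid precursor protein) was at 13.7, 12.8 and 13.8 CPM against 26.7, 22.3 and 27.4 (-0.92 ± 0.14, edgeR adjusted p = 0.00835), and Rnf208 (a ubiquitin ligase of the RING type) at 7.55, 6.95 and 6.14 CPM against 23.6, 22.5 and 19.2 (-1.67 ± 0.20, edgeR adjusted p = 0.00265). Below the 15 with the smallest p, the stable lower genes were not named by a set rule, and those given here were picked after their values were seen. Cyp26b1, which breaks down retinoic acid, was at 2.27, 1.07 and 1.61 CPM against 6.80, 4.72 and 8.95 (-2.05 ± 0.33, edgeR adjusted p = 0.0119). Rgnef, a RhoA exchange factor, was at 16.6, 12.6 and 14.8 CPM against 38.0, 48.9 and 41.7 (-1.55 ± 0.25, edgeR adjusted p = 0.0119). The ATP-gated channel gene P2rx1 was at 49.7, 44.5 and 35.9 CPM against 80.5, 69.4 and 80.7 (-0.83 ± 0.13, edgeR adjusted p = 0.0116), and P2rx6 at 3.46, 3.00 and 3.19 CPM against 7.67, 6.85 and 7.68 (-1.20 ± 0.20, edgeR adjusted p = 0.013). The groups were apart for each of these genes. Apbb1, Rcor2 and Setbp1 lost the call without Fancd2-/- library 2 and without wild-type library 1 (edgeR adjusted p up to 0.0689, 0.0726 and 0.0689), and Rcor2 also without wild-type library 2. Of the 6 fits with 1 placebo library left out, Cyp26b1 and P2rx1 were called in 3, Rgnef in 4 and P2rx6 in 2.

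Of the 5 lower genes with the smallest p that lost the call without Fancd2-/- library 3, Dok3, an adaptor that damps immune receptor signals, was at 7.66, 11 and 7.42 CPM against 19.6, 26.9 and 22.1 (log2 -1.40 with the library, -1.28 and edgeR adjusted p = 0.0579 without it). Cpxm1, a carboxypeptidase-like gene, was at 21.2, 21.3 and 16.9 CPM against 37.7, 35.1 and 38.1 (-0.90 and -0.79). Tspan33, a tetraspanin of erythroid progenitors, was at 11, 13 and 9.69 CPM against 19.5, 20.3 and 19.4 (-0.81 and -0.71), Osgin1 at 16.7, 17.9 and 14.8 CPM against 26, 30.5 and 28.8 (-0.79 and -0.71) and Mtss1l at 14.1, 13.2 and 12.4 CPM against 25.1, 28.6 and 29.9 (-1.08 and -1.02). Their groups were apart, and each had a difference of the same sign in both fits.

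Antigen presentation genes were below 0 in 22 of 24, with a median of -0.29 and 3 lower calls (12.5%); none was called without Fancd2-/- library 3, where the median was -0.27. H2-Q6, a nonclassical class I gene whose reads may be shared with its near copies, was at 56.4, 55.4 and 54.1 CPM against 110, 105 and 93.6 (log2 -0.90 ± 0.16, edgeR adjusted p = 0.0204; -0.87, edgeR adjusted p = 0.0541 without the library). H2-T23 (Qa-1) was at 266, 286 and 246 CPM against 415, 402 and 332 (-0.52 ± 0.11, edgeR adjusted p = 0.0438). The class II gene H2-Eb1 was at 90.0, 98.7 and 123 CPM against 260, 319 and 126, so wild-type library 3 lay next to the Fancd2-/- libraries (-1.18 ± 0.27, edgeR adjusted p = 0.0474; -0.88 and edgeR adjusted p = 0.216 without wild-type library 2). By library, the list's median was -0.39, -0.19 and -0.34 in Fancd2-/- and 0.10, 0.15 and -0.20 in wild-type cells, and wild-type library 3 overlapped the other group. Of the macrophage markers, Cd68 was at 12.1, 12.6 and 14.8 CPM in Fancd2-/- libraries 1 to 3 and at 14.4, 14.1 and 8.49 CPM in wild-type libraries 1 to 3, and C1qa was between 3.29 and 4.14 CPM in all 6. The part of such cells in the class II values was not tested. Interferon response genes had a median of -0.06, with 28 of 46 below 0 and 0 called by edgeR.

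Respiratory chain genes were above 0 in 53 of 53 tested, with a median of 0.46 and 0 called by edgeR. By library the median was 0.27, 0.24 and 0.81 in Fancd2-/- and 0.15, 0.01 and -0.13 in wild-type cells; without Fancd2-/- library 3 it was 0.24, and with the length trend removed 0.26. Cox7b, a cytochrome oxidase subunit, was at 144, 111 and 152 CPM against 87.9, 89.8 and 82.9 (0.64 ± 0.16, edgeR adjusted p = 0.061). Mitochondrial ribosomal protein genes went from a median of 0.39 to 0.16 without the library, proteasome subunits from 0.40 to 0.19, heat shock genes from 0.38 to 0.21, citrate cycle genes from 0.26 to 0.20, and cytosolic ribosomal protein genes from 0.16 to -0.01. None of these groups held an edgeR call in either fit. Long transcripts were low in that library, and the part of its length slope was not tested beyond the corrected medians, which were 0.21 for mitochondrial ribosomal proteins, 0.29 for proteasome subunits and -0.04 for cytosolic ribosomal proteins. Glycolysis genes had a median of -0.01 in both fits, with 14 of 30 above 0 and the enolase gene Eno2 called lower without Fancd2-/- library 3 (-1.41, edgeR adjusted p = 0.0319).

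Signalling and patterning groups lay mostly below 0. Wnt genes were below 0 in 24 of 30 (median -0.30, -0.26 without Fancd2-/- library 3), Notch genes in 22 of 24 (-0.25 and -0.24) and Hox cluster genes in 17 of 21 (-0.31 and -0.37), against 6843 of 13259 genes and a median of -0.01 overall. None of the 3 lists held an edgeR call with all libraries. Wnt10b was at 0.284, 0.253 and 0.23 CPM against 0.952, 1.64 and 1.27 (log2 -2.35 ± 0.58, edgeR adjusted p = 0.0659), and the Notch ligand gene Dll4 at 0.908, 0.759 and 0.854 CPM against 2.24, 2.10 and 1.81 (-1.30 ± 0.30, edgeR adjusted p = 0.0545). Hoxa9, a regulator of stem cell self-renewal, was at 45.1, 45.8 and 44.2 CPM against 59.9, 55.9 and 61.6 (-0.39 ± 0.12, edgeR adjusted p = 0.109). For these 3 genes the groups were apart, which was also so for 25.3% of all genes tested. TGF-beta and BMP genes had 1 call of 30, Ltbp3, a binding protein of latent TGF-beta, at 103, 109 and 92.4 CPM against 157, 172 and 151 (-0.66 ± 0.13, edgeR adjusted p = 0.0351; -0.59, edgeR adjusted p = 0.0848 without Fancd2-/- library 3), and a median of -0.08.

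The genotype difference was also read in other samples. On the oxymetholone diet 17 of 13259 genes (0.128%) were called, 4 higher (0.0302%) and 13 lower (0.098%), and among the 62 stable placebo genes 2 higher and 11 lower ones were called there in the same direction; the median log2 difference on oxymetholone was 0.39 for the 15 stable higher and -0.79 for the 47 stable lower genes. The oxymetholone libraries are other pools, sorted as flow cytometer partners of the placebo ones, and both tests share a fit. Socs2 (1.52), 6530418L21Rik (2.18), Pde2a (-1.20), Rtkn (-1.10) and Fscn1 (-1.97) had log2 differences near their placebo values on oxymetholone. Ccnb1 (0.32), Ccnb2 (0.33), Cenpa (0.31), Cd48 (0.44) and Cdkn1c (-0.24) had smaller ones there. The difference between diets was not established: 0 genes passed the edgeR test of it, fitted with the flow cytometer pairs as block (smallest adjusted p = 0.953, 457 genes at an unadjusted p under 0.05). In the 2 unsorted marrow libraries 8 of 14 stable higher and 28 of 46 stable lower genes with a ratio lay in the same direction, while 48.8% of all tested genes were above a ratio of 1. There Fancd2 was at 7.11 against 26.1 CPM, Socs2 at 4.11 against 2.85 CPM, Ccnb1 at 61.9 against 61.1 CPM, Cd48 at 63.8 against 62.1 CPM and Pde2a at 357 against 343 CPM.

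A targeted allele can carry flanking DNA of another strain, so genes near Fancd2 were counted apart. Fancd2 lies on chromosome 6 of mm9 (chr6:113481676-113546279), and within 20 Mb of it 6 of 201 tested genes (2.99%) were called apart from Fancd2 itself, against 1.97% on chromosome 6 and 1.28% in the genome. They were Clec4e and Cdca3 (higher) and Lag3, C1rl, Plekhg6 and Srgap3 (lower), and Clec4e was the stable one. Cdca3, a mitotic gene, was at 128, 173 and 217 CPM against 88.9, 117 and 99.3, and Lag3, an inhibitory receptor gene, at 19.8, 24.3 and 21.9 CPM against 49.4, 52.9 and 35.4 (-1.07, edgeR adjusted p = 0.0303). The strain of origin of the flanking DNA is not given in the labels.

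The count of calls moved with every library left out. Without Fancd2-/- libraries 1, 2 and 3 in turn 236, 34 and 76 genes were called, and without wild-type libraries 1, 2 and 3, 19, 30 and 31. In all 6 of these fits 17 genes were called, 5 higher (Cd48, Socs2, Ccnb2, Cenpa and Ccnb1) and 12 lower (Ndn, Pde2a, Rnf208, Mmp2, Tenc1, Rtkn, Tinagl1, Fancd2, Rhbdf1, Gria3, Plag1 and Cntn1), while 34 of the 170 were called in none. Of the 15 higher and 47 lower genes stable to Fancd2-/- library 3, 14 and 38 were called without Fancd2-/- library 1, and 7 and 17 without Fancd2-/- library 2. Without wild-type libraries 1, 2 and 3 in turn the numbers were 5 and 13, 8 and 20, and 6 and 20. With the 6 placebo libraries alone in the fit 11 genes were called, of which 1 higher and 9 lower were among the stable genes.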

How the data were processed

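RNA of sorted KSL pools was read as oligo(dT)-selected mRNA in 51-base reads, aligned to mm9 with Bowtie, per the submitters' processing notes and the labels' protocols; their versions are not given in the sources. The deposited counts are whole reads per RefSeq transcript, not normalized. The authors also deposited a matrix scaled to 20 megareads per library, treated here as a score. For each symbol the transcript with the largest total over the 20 columns was used (20377 symbols). The column of Fancd2-/- library 1 differs by a digit from the title of its sample, to which it was matched as the only one like it.

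edgeR 4.0.16 (R 4.3.3; TMM scaling, filterByExpr, robust quasi-likelihood) was fitted to the 12 KSL libraries in 4 group means, with Benjamini-Hochberg adjustment and calls at 0.05, and refitted without Fancd2-/- library 3. CPM uses the TMM library sizes. List medians by library use log2 (CPM + 0.5). Alternatives used limma 3.58.1 and DESeq2 1.42.0, and log2 (value + 1) for the scaled matrix. Named genes are the 15 stable genes per direction with the smallest p, at a mean of at least 1 CPM in a group and with groups that do not overlap. To these were added the first 5 per direction that lost the call, and called members of 57 lists. Other names were chosen after values were seen. Members and lists were chosen with earlier results of these data known, so the share of calls in a list is a description and no independent support. Promoters are RefSeq sequences of GRCm38.p6, placed in mm9 by exact single match. Library depths ran from 10.8 to 121 megareads, and low genes are least precise in wild-type library 3. Not every gene and list is reported here.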

Additional observations from a re-analysis of the deposited data

How the results depend on the processing

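Counts of called genes depended on the fit. Against 170 genes (67 higher, 103 lower), DESeq2 called 809 (468 and 341), limma voom with quality weights 1412 (591 and 821), the fit to the placebo libraries alone 11 (1 and 10), the fit without both libraries titled QZ 14 (2 and 12), and the fit without Fancd2-/- library 3 and its flow cytometer partner 419 (175 and 244). Leaving out 1 library at a time gave 19 to 236 genes in all, 5 to 128 higher and 14 to 108 lower. Fancd2 was at -1.28 and missed the threshold in the placebo libraries alone, and passed in the other 16 alternatives. Without Fancd2-/- library 3 the counts of 76 (17 and 59) became 167 (61 and 106) with no low-count filter, 463 (200 and 263) with DESeq2, 546 (258 and 288) with voom and 550 (207 and 343) in the placebo libraries alone. Leaving out a further library gave 0 to 31 genes in all, 0 to 13 higher and 0 to 24 lower; the 0 was edgeR without Fancd2-/- library 2, where 1487 genes had an unadjusted p under 0.05 and the lone library left is assumed to vary like the other groups. A fit with the letters of the sample titles as covariate, chosen after seeing the data, called 225 (148 of them among the 170). For the 67 named genes other than Fancd2, 770 of 1139 values under alternatives kept direction and side of the threshold, 369 kept direction only and 0 reversed. The cause of these changes was not tested. No paired analysis was possible because genotype is constant within each flow cytometer pair, and equal replicate numbers were given in accession order; this holds for the genotype difference on placebo, while the difference between diets was fitted with the pairs as block (0 called by edgeR, smallest adjusted p = 0.953, 457 genes at an unadjusted p under 0.05).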
